A study of Canis lupus familiaris with 29 samples.

Results

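The genes described are those of platelet-derived growth factor (PDGF) ligands, their receptors and the related receptor KIT. They were found by name in the count table, as PDGFA, PDGFB, PDGFC, PDGFD, PDGFRA, PDGFRB and KIT, and made 7 of the 30951 genes listed. The study sequenced RNA from pheochromocytomas and paragangliomas (PPGLs) of dogs, which are tumors of catecholamine-producing chromaffin cells, and from normal adrenal medullas (NAMs). Its 29 samples were 10 NAMs of healthy research dogs and 19 PPGLs of dogs owned by clients, 7 in PPGL group 1 and 12 in PPGL group 2. The tumors arose without any experimental treatment and were taken at surgery or after euthanasia, so the origin of the animals and the tissue cannot be told apart. Ages, sexes and genotypes are not used here. The authors drew both PPGL groups from a principal component analysis of these samples, so a test between the groups describes that split.

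PDGFs are secreted dimers that bind receptor tyrosine kinases, PDGFRA and PDGFRB, mostly on fibroblasts and on the mural cells (pericytes and smooth muscle cells) that wrap vessels. KIT belongs to the same receptor class and binds stem cell factor, the product of KITLG. It is best known from mast cells, melanocytes, interstitial cells of Cajal and blood progenitors, and several kinase inhibitors act on it and on PDGF receptors alike.

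In CanFam3.1, PDGFRA (ENSCAFG00000002057) lies on chromosome 13 from 46730703 to 46773278 with 25 exon blocks, and KIT (ENSCAFG00000002065) lies on the same plus strand from 47108504 to 47190029 with 22. The gap between this pair is 335225 bases and holds 2 unnamed genes. PDGFRB (ENSCAFG00000018214) lies on chromosome 4 from 58926351 to 58962283, plus strand, with 23 exon blocks. Of the ligand genes, PDGFA (ENSCAFG00000011193) spans 16270104 to 16292396 of chromosome 6 and PDGFB (ENSCAFG00000001356) spans 25798938 to 25817746 of chromosome 10, both on the plus strand. PDGFC (ENSCAFG00000008612) spans 54145381 to 54345830 of chromosome 15, minus strand, and PDGFD (ENSCAFG00000032342) spans 27863591 to 28089936 of chromosome 5, plus strand. No exon of the 7 genes shared bases with another listed gene, and the span of PDGFD overlaps 1 other gene.

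Total counts per sample ran from 19258054 to 35918182 for NAMs and from 18208718 to 31919833 for PPGLs. Levels are TMM-normalized CPM, read counts scaled to a common library size by edgeR. A level of 3 counts, taken as the floor, corresponded to 0.0835 to 0.156 CPM for NAMs and 0.0940 to 0.165 CPM for PPGLs, by library size without TMM factors, and covers counting error only. All 7 genes passed the filter on low counts in each comparison and lay above the floor in all 29 samples. The lowest count was 4, for PDGFRA in group 1 replicate 6.

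The labelled tissue was checked against marker genes. The 13 chromaffin cell markers found summed to 18824 CPM or more in each NAM and to between 9125 CPM (group 1 replicate 7) and 130090 CPM among PPGLs, with CHGB the most abundant. Group 1 replicate 5, at 15773 CPM, was also below every NAM. By the score, the mean log2 CPM, group 1 replicates 3, 5 and 7 (7.31, 6.74 and 7.66) and group 2 replicate 11 (7.76) were below every NAM, the lowest of which was at 8.61. PHOX2A, HAND2, SYP and SCG3 were higher in PPGLs and PNMT, which makes epinephrine, was lower (log2 FC -1.94, adjusted p = 0.0177). Here and below, single markers other than the most abundant and those at the floor were chosen after their values were seen. The 10 markers found of the adrenal cortex, which surrounds the medulla, were abundant in NAMs, where they summed to 13129.6 to 64187 CPM with a median of 34389 CPM. Their sum was 37.0 to 1152 CPM in group 1 (median 224) and 219 to 31984.5 CPM in group 2 (median 3441), with CYP17A1 the most abundant. In PPGLs the QL test called 9 of these 10 genes, all lower, and the Mann-Whitney U-test called 10. HSD3B2 had a log2 FC of -2.23 and an adjusted p of 0.0889 by the QL test. Fewer cells of a type and less RNA per cell cannot be told apart in such bulk samples.

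PPGLs were set against NAMs to find genes that distinguish tumor from normal tissue. PDGFD and PDGFA were called lower in PPGLs and no member was called higher, though the median of PDGFA was higher in PPGLs (35.3 beside 31.6 CPM). With edgeR's quasi-likelihood (QL) test and Benjamini-Hochberg adjustment, these 2 of 7 genes had an adjusted p below 0.05, beside 37.5% of the 14766 genes tested, and 15.2% of all genes tested were lower. Counts of list genes called in PPGLs by the QL test, above and below, are to be read beside these shares. The median log2 fold change (FC) of the 7 genes was -0.01, beside 0.13 over all genes tested. The number of members called was 1, PDGFD, without NAM replicate 3, without NAM replicate 6 or without NAM replicate 7, and 3 without group 2 replicate 11.

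PDGFD, a ligand of PDGFRB that is secreted as a latent form and activated by proteases, ran from 47.2 to 173 CPM with a median of 98.7 CPM in NAMs. Its level in PPGLs ran from 4.73 to 65.7 CPM with a median of 15.6 CPM. Of the 19 PPGLs, 17 were below every NAM, and the exceptions were group 2 replicates 10 and 11, at 65.7 and 50.8 CPM. All 7 tumors of group 1 were below every NAM. The log2 FC was -2.26 (SE 0.31, adjusted p = 3.78e-06 by the QL test). Against these same NAMs, it was -2.86 (SE 0.43, adjusted p = 1.15e-05) for group 1 and -2.01 (SE 0.34, adjusted p = 7.35e-05) for group 2.

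PDGFD moved with the cortical markers in NAMs. Its correlation with the cortical score, the mean log2 CPM of the 10 cortical genes, was r = 0.89 (permutation p = 0.00065, Benjamini-Hochberg adjusted p = 0.00444) over 10 NAMs. Spearman's rho was 0.84 (permutation p = 0.00394, adjusted p = 0.0295), and r was 0.90 without NAM replicates 4 and 3, the farthest from the median of PDGFD. Over the 19 PPGLs r was 0.47 (permutation p = 0.0404, adjusted p = 0.121) and rho was 0.39 (permutation p = 0.101, adjusted p = 0.263). That value rested on group 2 replicate 10 and group 1 replicate 7, without which r was 0.17. It was 0.13 within group 1 (n = 7, exact permutation p = 0.771) and 0.34 within group 2 (n = 12, permutation p = 0.278). Group 2 replicate 10 had the highest PDGFD and cortical sum of the PPGLs (65.7 and 31984.5 CPM), while group 2 replicate 11 had 50.8 CPM of PDGFD beside a cortical sum of 551 CPM. A fit with the cortical score as a term gave PDGFD a log2 FC of -1.44 (adjusted p = 0.0222) for all PPGLs, -1.17 (adjusted p = 0.66) for group 1 and -1.37 (adjusted p = 0.0838) for group 2. The score ran from 8.84 to 11.1 in NAMs and from -0.61 to 3.63 in group 1, without overlap, and 11 of 12 tumors of group 2 were below every NAM. Tissue and score can thus hardly be told apart in these fits, here and below, and not at all for group 1. A call lost in them does not show that cortical cells account for a difference, and their part was not tested beyond this.

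**Figure D1:**
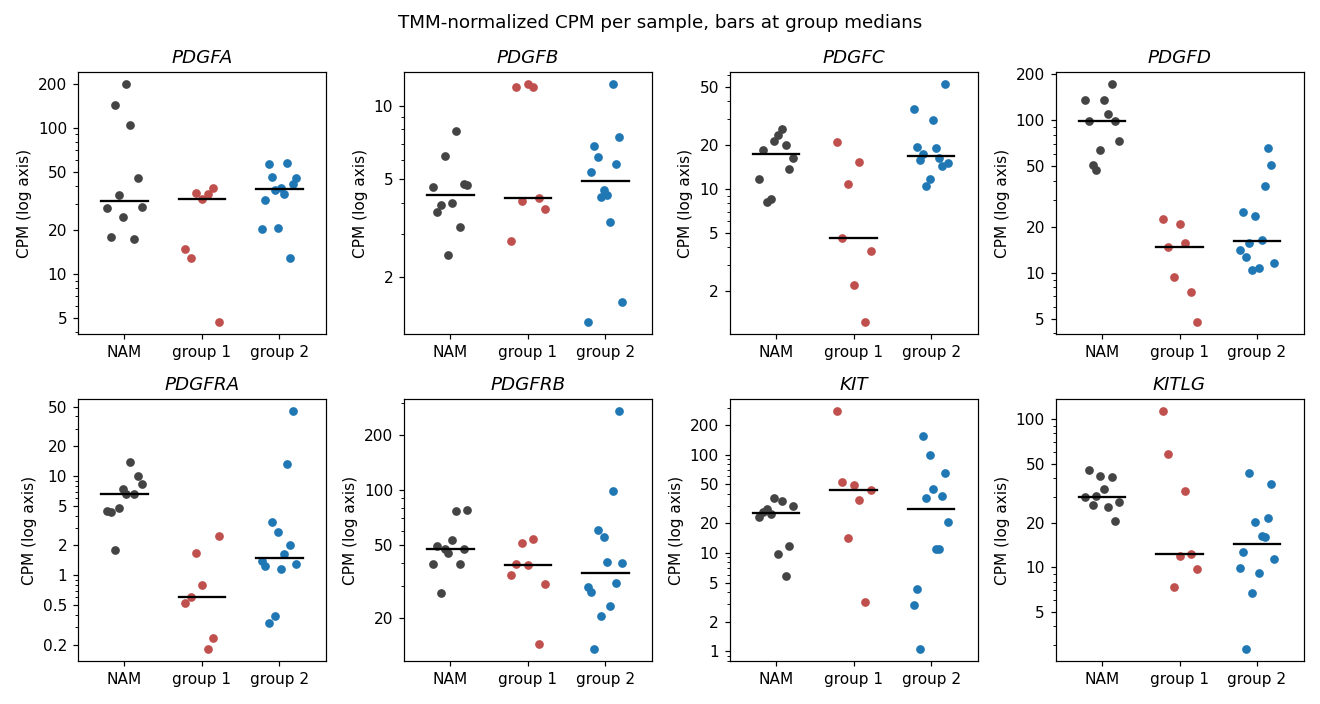
TMM-normalized CPM (log axes) of the 7 genes and KITLG in 10 NAMs, 7 PPGLs of group 1 and 12 of group 2. Points are samples and bars are group medians. PDGFD lay at 47.2 to 173 CPM in NAMs and at 4.73 to 65.7 CPM in PPGLs.

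PDGFA, which binds PDGFRA, was high in a few NAMs. It ran from 17.3 to 200.1 CPM in NAMs with a median of 31.6 CPM, and from 4.67 to 57.6 CPM in PPGLs with a median of 35.3 CPM. NAM replicates 6, 3 and 7, at 200.1, 143 and 104 CPM, were above all PPGLs, and the other NAMs overlapped with them. The median was thus higher in PPGLs while the log2 FC was -0.99 (SE 0.36, adjusted p = 0.0331 by the QL test). The call was lost without NAM replicate 3 (log2 FC -0.78, adjusted p = 0.0991), without NAM replicate 6 (-0.60, adjusted p = 0.186) and without NAM replicate 7 (-0.88, adjusted p = 0.07). By the Mann-Whitney U-test the adjusted p was 0.701, and with the cortical score in the fit it was 0.544 (log2 FC -0.57).

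For group 1 against NAMs the log2 FC of PDGFA was -1.37 (SE 0.49, adjusted p = 0.0287 by the QL test), and for group 2 it was -0.81 (SE 0.40, adjusted p = 0.124). The adjusted p for group 1 passed 0.05 when single samples were left out. It was 0.0602 without NAM replicate 3, 0.0897 without NAM replicate 6, 0.0561 without group 1 replicate 1, 0.0573 without group 1 replicate 2 and 0.0583 without group 1 replicate 7. It was 0.0672 when group 2 was left out of the fit, 0.42 by the Mann-Whitney U-test and 0.712 with the cortical score in the fit, where the log2 FC was -1.42. With the chromaffin cell score, PDGFA gave r = 0.11 in PPGLs (permutation p = 0.654, adjusted p = 0.891; rho = -0.05, permutation p = 0.825, adjusted p = 0.931), and r = -0.14 without group 1 replicate 7 and group 2 replicate 10.

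PDGFC, a protease-activated ligand of PDGFRA, was low in part of group 1. It ran from 8.12 to 25.7 CPM (median 17.4) in NAMs, from 1.23 to 21.1 CPM (median 4.61) in group 1 and from 10.5 to 52.5 CPM (median 16.8) in group 2. In group 1, 4 of 7 tumors were below every NAM and every tumor of group 2, and the highest PDGFC level was that of group 2 replicate 11. Between the tumor groups the log2 FC was -1.32 (SE 0.49, adjusted p = 0.134 by the QL test), which missed the threshold of 0.1. It passed without group 1 replicate 1 (-1.75, adjusted p = 0.0514), by DESeq2 (adjusted p = 0.0465) and with NAMs added to the fit (adjusted p = 0.0402).

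Against NAMs the log2 FC of PDGFC was -0.99 (SE 0.43, adjusted p = 0.0745 by the QL test) for group 1 and 0.35 (SE 0.37, adjusted p = 0.48) for group 2. For group 1 the adjusted p was 0.0138 without group 1 replicate 1, 0.0416 without group 1 replicate 5 and 0.0457 by DESeq2. Over all PPGLs the log2 FC was -0.01, with a 95% interval from -0.78 to 0.77, and ran from -0.19 to 0.08 when 1 sample was left out in turn.

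PDGFB, by which endothelial cells recruit pericytes, did not pass the test in any comparison. It ran from 2.45 to 7.85 CPM in NAMs (median 4.34) and from 1.31 to 12.3 CPM in PPGLs (median 4.54). The ranges overlapped, with 4 PPGLs above and 2 below every NAM. Its log2 FC was 0.40, with a 95% interval from -0.22 to 1.02 (adjusted p = 0.316 by the QL test).

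PDGFB was also set against the endothelial score. The 11 endothelial markers summed to 531 to 1104 CPM (median 718) in NAMs and to 221 to 1093 CPM (median 540.4) in PPGLs, with PECAM1 the most abundant, and VWF, TEK, TIE1 and EMCN of the 11 were lower in PPGLs. Over the 19 PPGLs r was 0.57 (permutation p = 0.0102, Benjamini-Hochberg adjusted p = 0.051) and rho was 0.72 (permutation p = 0.00054, adjusted p = 0.0054). Without group 2 replicates 1 and 12, r was 0.70. It was 0.75 in group 1 (n = 7, exact permutation p = 0.0639) and 0.55 in group 2 (n = 12, permutation p = 0.0599). Markers of platelets, which carry PDGF, summed to 0.891 to 5.90 CPM in NAMs and to 1.29 to 14.4 CPM in PPGLs, with ITGA2B the most abundant. Both platelet genes tested, PPBP and ITGA2B, were higher in PPGLs (log2 FC 2.36 and 0.86, adjusted p = 0.0373 and 0.0131 by the QL test), and their part in the PDGFB levels was not tested.

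Of the receptors, PDGFRA, a marker of mesenchymal cells, was low in most tumors and high in group 2 replicate 11. It ran from 1.79 to 13.8 CPM (median 6.66) in NAMs, from 0.179 to 2.52 CPM (median 0.612) in group 1 and from 0.332 to 45.4 CPM (median 1.51) in group 2. Of the 19 PPGLs, 13 were below every NAM and 17 were below the NAM median. Group 2 replicate 11, at 45.4 CPM, was above every NAM, and group 2 replicate 9 was at 13.1 CPM. The log2 FC of PPGLs against NAMs was -0.68, with a 95% interval from -2.08 to 0.71 (adjusted p = 0.453 by the QL test). Without group 2 replicate 11 it was -1.79 (adjusted p = 0.00514). On all samples DESeq2 gave -1.77 (adjusted p = 0.00116) and the Mann-Whitney U-test an adjusted p of 0.00269, while the cortical score in the fit gave 0.23 (adjusted p = 0.924).

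PDGFRA was lower in group 1 than in NAMs (log2 FC -2.86, SE 0.86, adjusted p = 0.0108 by the QL test). Of the 7 tumors, 6 were below every NAM. With the cortical score in that fit the log2 FC was -7.93 (adjusted p = 0.157). For group 2 the log2 FC was -0.15 (SE 0.66, adjusted p = 0.886), -1.38 (adjusted p = 0.0416) without group 2 replicate 11 and 0.02 without NAM replicate 7. By the Mann-Whitney U-test the adjusted p for group 2 was 0.0324. Between the tumor groups the log2 FC was -2.74 (SE 0.98, adjusted p = 0.127). It was -1.49 (adjusted p = 0.266) without group 2 replicate 11, and the adjusted p was 0.0358 with NAMs added to the fit.

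Fibroblast markers moved with PDGFRA among tumors. The 11 found summed to 695 to 1281 CPM (median 847) in NAMs, to 556 to 6885 CPM (median 2337) in group 1 and to 2109 to 27719.7 CPM (median 3399) in group 2. The highest sum was in group 2 replicate 11, which also had the highest PDGFRA, PDGFRB and PDGFC of the 29 samples. THY1, which neurons carry too, was the most abundant, and MFAP5 was at or under 3 counts in 7 NAMs and 9 PPGLs. The fibroblast score, the mean log2 CPM of the 10 tested for all PPGLs, differed in direction from the sum of 11 in group 1. Its median was 5.08 in NAMs, 4.63 in group 1 and 5.71 in group 2, and in group 1, 3 of 7 tumors were below and 3 above every NAM. Group 1 replicate 6 had the highest sum of its group, 6885 CPM, at a score of 4.63. Of 10 fibroblast genes tested, 7 were higher in PPGLs by the QL test and none was lower, and the Mann-Whitney U-test called 2. Against NAMs, 9 of 11 were higher in group 2, where DESeq2 called 10 and the Mann-Whitney U-test 4, while in group 1 COL1A1 and THY1 of the 11 were higher by the QL test. For group 1 DESeq2 called 3 and the Mann-Whitney U-test 0, with 2 at an unadjusted p below 0.05 by the latter.

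Over the 19 PPGLs, PDGFRA and the fibroblast score gave r = 0.90 (permutation p = 1e-05, the smallest the permutations can give, Benjamini-Hochberg adjusted p = 0.0003). Spearman's rho was 0.83 (permutation p = 3e-05, adjusted p = 0.0009), and r was 0.80 without group 2 replicates 11 and 9. It was 0.88 in group 1 (n = 7, exact permutation p = 0.00833) and 0.88 in group 2 (n = 12, permutation p = 0.00014). In NAMs r was 0.05 (permutation p = 0.887, adjusted p = 0.926), rho was 0.15 (permutation p = 0.682, adjusted p = 0.931) and r was 0.51 without NAM replicates 3 and 7. PDGFRA and the cortical score gave r = 0.28 in PPGLs (permutation p = 0.26, adjusted p = 0.458; rho = 0.28, permutation p = 0.245, adjusted p = 0.457), and r = 0.36 without group 2 replicates 11 and 9. Within the groups that r was negative, at -0.38 in group 1 (n = 7, exact permutation p = 0.409) and -0.12 in group 2 (n = 12, permutation p = 0.703). Markers of the adrenal capsule summed to 50.8 to 146 CPM (median 98.6) in NAMs and to 10.2 to 356 CPM (median 39.3) in PPGLs, with HHIP the most abundant and WT1 at or under 3 counts in all NAMs, and NR2F2 and TCF21 of 5 tested were lower. Their score had a median of 2.96 in NAMs, 1.02 in group 1 and 1.80 in group 2, and was below every NAM in 7 of 7 and 9 of 12 tumors. The part of these cells in the PDGFRA levels was not tested beyond this.

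**Figure D2:**
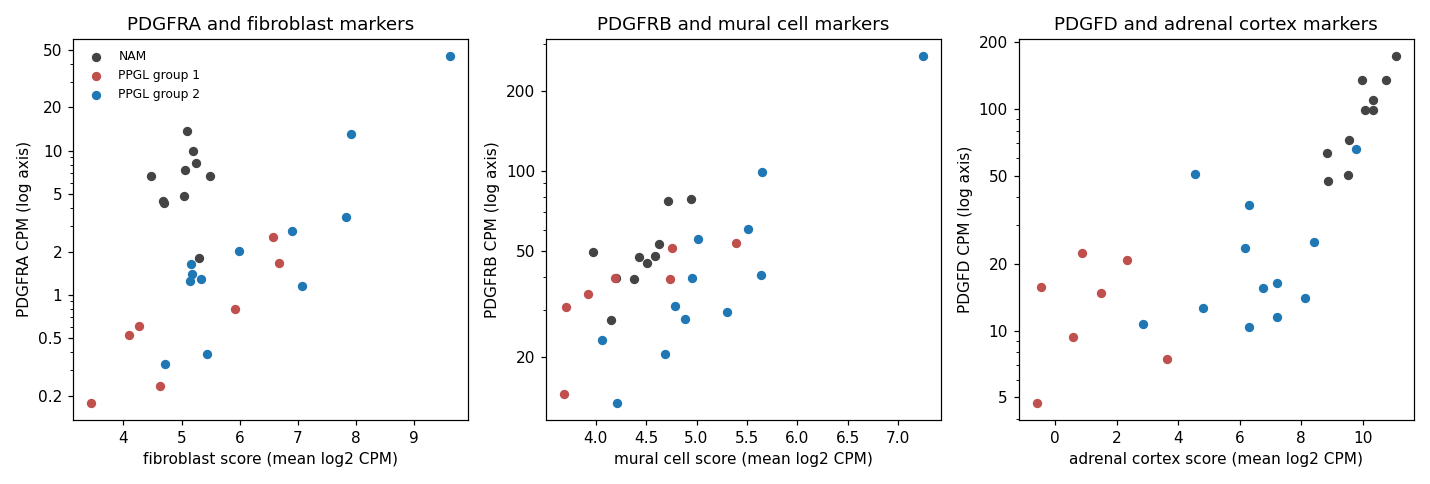
CPM of PDGFRA, PDGFRB and PDGFD (log axes) against the mean log2 CPM of fibroblast, mural cell and adrenal cortex markers, with 1 point per sample colored by group. PDGFRA rose with the fibroblast score over the 19 PPGLs (r = 0.90), and in NAMs r was 0.05.

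PDGFRB, the receptor of mural cells, ran from 27.4 to 78.2 CPM in NAMs (median 47.7) and from 13.5 to 269.9 CPM in PPGLs (median 39.2). Group 2 replicates 11 and 9, at 269.9 and 98.8 CPM, were above every NAM, and 4 PPGLs were below. Its log2 FC was 0.02, with a 95% interval from -0.70 to 0.74 (adjusted p = 0.967 by the QL test). Without group 2 replicate 11 it was -0.37 (adjusted p = 0.231) for PPGLs and -0.34 (adjusted p = 0.348), in place of 0.22, for group 2 against NAMs. Leaving out 1 sample in turn gave -0.37 to 0.11 for PPGLs.

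Mural cell markers moved with PDGFRB. The 12 found summed to 401 to 1675 CPM (median 899.9) in NAMs, to 339 to 4037 CPM (median 1815) in group 1 and to 869 to 5222 CPM (median 1715) in group 2. RGS5 was the most abundant, and HIGD1B was at or under 3 counts in 8 NAMs and 6 PPGLs. Of 11 tested, RGS5, NOTCH3, ACTA2, ABCC9 and CNN1 were higher in PPGLs and none was lower. For group 1 against NAMs, ABCC9 and HIGD1B of 12 tested were higher and DES was lower. In group 2, 6 of 12 were higher and 0 lower, while DESeq2 called 5 and the Mann-Whitney U-test 3. The mural score, the mean log2 CPM of the 11 tested for all PPGLs, had a median of 4.47 in NAMs, 4.19 in group 1 and 4.99 in group 2. It was below every NAM in 3 of 7 tumors of group 1, so in that group it differed in direction from the sum, which covers 12 genes. This score was above every NAM in 1 tumor of group 1 and in 7 of 12 tumors of group 2. Over the 19 PPGLs, PDGFRB and the mural score gave r = 0.82 (permutation p = 5e-05, Benjamini-Hochberg adjusted p = 0.00075) and rho = 0.74 (permutation p = 0.00052, adjusted p = 0.0054). Without group 2 replicates 11 and 3, r was 0.66. It was 0.77 in group 1 (n = 7, exact permutation p = 0.0302) and 0.91 in group 2 (n = 12, permutation p = 0.00019). In NAMs r was 0.73 (permutation p = 0.0168, adjusted p = 0.0688), rho was 0.72 (permutation p = 0.0239, adjusted p = 0.103) and r was 0.52 without NAM replicates 3 and 10.

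With the fibroblast score, PDGFRB gave r = 0.72 (permutation p = 0.00067, Benjamini-Hochberg adjusted p = 0.00444) and rho = 0.59 (permutation p = 0.00864, adjusted p = 0.0518) over the PPGLs. Within group 2 r was 0.94 (n = 12, permutation p = 1e-05, the smallest they can give), and within group 1 it was 0.04 (n = 7, exact permutation p = 0.961). The difference between these values was not tested. Without group 2 replicates 11 and 3, r was 0.52. The part of mural cells and fibroblasts in the PDGFRB levels was not tested beyond this.

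KIT ran from 5.86 to 36.3 CPM in NAMs (median 25.6), from 3.15 to 278 CPM in group 1 (median 44.0) and from 1.04 to 156 CPM in group 2 (median 28.3). Of the 19 PPGLs, 9 were above every NAM and 4 below. Group 1 replicate 1 was the highest at 278 CPM, followed by group 2 replicates 4 and 6 at 156 and 99.6 CPM. The log2 FC of PPGLs against NAMs was 1.14, with a 95% interval from -0.11 to 2.39 (adjusted p = 0.144 by the QL test). For group 1 it was 1.55 (SE 0.72, adjusted p = 0.0959), 0.51 (adjusted p = 0.606) without group 1 replicate 1, and 1.57 (adjusted p = 0.0445) when group 2 was left out of the fit. Between the tumor groups it was 0.76 (SE 0.80, adjusted p = 0.643) and -0.32 without group 1 replicate 1.

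Mast cells carry KIT, and no relation of KIT with their markers passed the test. The 6 found summed to 3.27 to 6.88 CPM (median 4.99) in NAMs and to 1.33 to 87.0 CPM (median 12.8) in PPGLs, with CPA3 the most abundant. CPA3 had 0 counts in group 1 replicate 7, where KIT was at 44.0 CPM, MS4A2 was at or under 3 counts in 1 NAM and 5 PPGLs, and FCER1A in 6 NAMs and 10 PPGLs. Group 1 replicate 1, with the most KIT, had a mast cell sum of 5.17 CPM, and of 5 mast cell genes tested IL1RL1 was higher in PPGLs (log2 FC 4.08, adjusted p = 0.00563 by the QL test). Of these 5 genes DESeq2 called 3 and the Mann-Whitney U-test 0, with 2 at an unadjusted p below 0.05 by the latter. Against NAMs, 2 of 5 were higher in group 2 by the QL test, where DESeq2 called 3 and the Mann-Whitney U-test 2. The mast cell score was above every NAM in 7 of 12 tumors of group 2, and in group 1 it was above in 2 of 7 and below in 2. Over the 19 PPGLs r of KIT with this score was -0.01 (permutation p = 0.978, Benjamini-Hochberg adjusted p = 0.978) and rho was -0.07 (permutation p = 0.766, adjusted p = 0.931). It was -0.07 without group 2 replicates 3 and 1, -0.32 in group 1 (n = 7, exact permutation p = 0.498) and 0.24 in group 2 (n = 12, permutation p = 0.457). KIT and the chromaffin cell score gave r = -0.16 in PPGLs (permutation p = 0.505, adjusted p = 0.782; rho = -0.03, permutation p = 0.899, adjusted p = 0.951) and r = -0.08 without the same pair of tumors.

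Markers of other cells that carry KIT were examined too. Those of melanocytes summed to 5.09 to 18.5 CPM in NAMs and to 4.17 to 17.4 CPM in PPGLs, with MITF the most abundant. TYRP1 and DCT were at or under 3 counts in all samples, and TYR and MLANA in all NAMs and 18 PPGLs. Of 2 tested, 0 were called by the QL test, with 0 at an unadjusted p below 0.05 and 0 called by DESeq2 or the Mann-Whitney U-test. The markers of interstitial cells of Cajal summed to 15.1 to 96.1 CPM in NAMs and to 7.69 to 70.1 CPM in PPGLs. ETV1 was the more abundant and was lower in PPGLs (log2 FC -1.37, adjusted p = 0.00417 by the QL test), and ANO1 was higher (log2 FC 1.81, adjusted p = 0.000112). Schwann and sustentacular cell markers summed to 60.7 to 179 CPM (median 108) in NAMs and to 2.50 to 249 CPM (median 32.5) in PPGLs, with CDH19 the most abundant. Their score was below every NAM in 5 of 7 tumors of group 1 and 9 of 12 of group 2, and above every NAM in 1 tumor of group 1. S100B was at or under 3 counts in 16 PPGLs, and 0 of 7 tested were called by the QL test. Of these, 2 had an unadjusted p below 0.05, DESeq2 called 2 and the Mann-Whitney U-test called 4. The part of these cells in the KIT levels was not tested.

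KITLG, which encodes the ligand of KIT, moved with KIT among tumors. It ran from 20.5 to 45.2 CPM in NAMs (median 29.97) and from 2.80 to 113 CPM in PPGLs (median 12.6). Of the 19 PPGLs, 13 were below every NAM, and group 1 replicates 1 and 2, at 113 and 58.4 CPM, were above. Its log2 FC was -0.43 (SE 0.40, adjusted p = 0.412 by the QL test), and the Mann-Whitney U-test gave an adjusted p of 0.0416. Over the 19 PPGLs, KITLG and KIT gave r = 0.71 (permutation p = 0.00074, Benjamini-Hochberg adjusted p = 0.00444) and rho = 0.58 (permutation p = 0.0108, adjusted p = 0.054). Without group 1 replicates 1 and 2, r was 0.63. It was 0.69 in group 1 (n = 7, exact permutation p = 0.0829) and 0.73 in group 2 (n = 12, permutation p = 0.0073). In NAMs r was -0.09 (permutation p = 0.808, adjusted p = 0.926), rho was -0.08 (permutation p = 0.838, adjusted p = 0.931) and r was -0.51 without NAM replicates 2 and 9.

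Of 30 correlations computed over both tissues, 5 had an adjusted p below 0.05 for r. Among the pairs of a PDGF and its receptor, PDGFD and PDGFRB gave r = 0.52 in PPGLs (permutation p = 0.0245, Benjamini-Hochberg adjusted p = 0.0816) and rho = 0.38 (permutation p = 0.114, adjusted p = 0.263). Without group 2 replicate 10 and group 1 replicate 7, r was 0.72, and it was 0.42 in group 1 (n = 7, exact permutation p = 0.372) and 0.56 in group 2 (n = 12, permutation p = 0.0567). For the other ligand and receptor pairs in PPGLs, PDGFB with PDGFRB, PDGFA with PDGFRA and PDGFC with PDGFRA, the adjusted p of r was 0.355, 0.926 and 0.163.

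The tumor groups were compared to describe how the split of the PPGLs ran through these genes. With the QL test, 0 of 7 genes had an adjusted p below 0.1, beside 6.92% of the 14666 genes tested, and 2 had an unadjusted p below 0.05. These were PDGFRA (p = 0.0114) and PDGFC (p = 0.0129). DESeq2 called 1 of 7, PDGFC, and the Mann-Whitney U-test called 0. The median log2 FC of the 7 genes was -0.65, beside 0.04 over all genes tested. Without group 1 replicate 1 the number of members called was 1. The count over all genes was 1015, and it was 525 without group 1 replicate 7 and 674 without group 2 replicate 4.

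Each group was also set against the same NAMs. For group 1, 3 of 7 genes were called, beside 35.1% of the 15201 genes tested, and all 3 were lower, beside 14.1%. The number called for group 1 was 2 without NAM replicates 3 or 6 or group 1 replicates 2 or 7, and 4 without group 1 replicate 5. For group 2, 1 of 7 was called and lower (2 without group 2 replicate 11), beside 32.9% of all genes called and 14.5% lower. The median log2 FC of the 7 genes was -0.99 for group 1 and 0.20 for group 2, beside 0.13 and 0.09 over all genes tested. Scaling by library size alone moved the median over all genes from 0.13 to 0.24 for group 1 against NAMs and left these 3 and 1 members called.

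Levels of different genes were compared as CPM per kilobase of exon. In NAMs PDGFD had the highest median, 42.6 CPM per kilobase, followed by PDGFC (15.5), PDGFRB (12.3), KIT (8.01), PDGFA (6.45), PDGFB (3.21) and PDGFRA (1.39). PDGFD was above PDGFC in 10 of 10 NAMs, whereas KIT was above PDGFA in 5 of 10. In group 1 the highest median was that of KIT (13.8 CPM per kilobase), above PDGFRB in 4 of 7 tumors. In group 2 it was that of PDGFC (15.0 CPM per kilobase), above PDGFRB in 8 of 12. By this measure PDGFD was highest of the 7 in 9 of 10 NAMs and 1 of 19 PPGLs, and PDGFRA was lowest in 10 of 10 NAMs and 18 of 19 PPGLs.

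**Figure D3:**
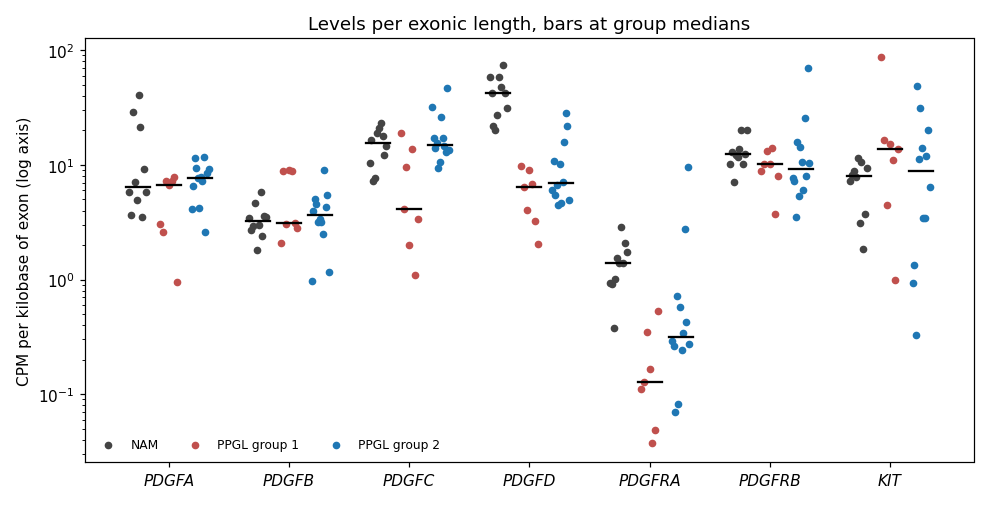
CPM per kilobase of exon (log axis) of the 7 genes in NAMs and in both PPGL groups, with 1 point per sample and a bar at the median. PDGFD had the highest median in NAMs (42.6) and PDGFRA the lowest in each group.

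Among 12749 other named genes, those most alike to each member over the 19 PPGLs were taken by Spearman's rho of log2 CPM. For the ligands they were VGF, VLDLR and GRN for PDGFA (rho 0.82, 0.78 and 0.76) and ENTPD1, TCF7L1 and NDRG1 for PDGFB (0.80, 0.78 and 0.77). For PDGFC they were AGTRAP, PTGS2 and MAPKAPK3 (rho 0.83, 0.80 and 0.79) and for PDGFD JCAD, ADGRL4 and LDB2 (0.87, 0.86 and 0.85). For the receptors they were THBS2, CPXM1 and C6H16orf54 for PDGFRA (rho 0.91, 0.87 and 0.86) and TBC1D1, LAMA4 and PLXNA2 for PDGFRB (0.90, 0.87 and 0.87). For KIT they were ZBTB7C, NAV1 and HNRNPA0 (rho 0.81, 0.80 and 0.77). These are the highest of many values and have no test.

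Of 9 related ligands and receptors, 1 was higher and 3 were lower in PPGLs than in NAMs, with a median log2 FC of -0.43. Over all genes tested, the QL test called 37.5% in either direction. CSF1, a ligand of the receptor CSF1R, ran from 18.6 to 337 CPM in NAMs and from 2.65 to 74.5 CPM in PPGLs (log2 FC -2.40, SE 0.46, adjusted p = 0.000216 by the QL test). IL34, another ligand of CSF1R, had a log2 FC of -0.99 (adjusted p = 0.00207) and CSF1R itself -0.72 (adjusted p = 0.0309). Each of these calls was lost with the cortical score in the fit, at adjusted p = 0.0511, 0.339 and 0.158, and that of CSF1R without NAM replicate 2 (adjusted p = 0.0555). Macrophages carry CSF1R, and their 8 markers summed to 388 to 1382 CPM in NAMs and to 159 to 2450 CPM in PPGLs, with C1QC the most abundant and MRC1 of the 8 lower (log2 FC -1.30, adjusted p = 0.000335 by the QL test). Their part in the CSF1R levels was not tested.

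FLT3LG, the ligand of FLT3, was higher in every PPGL, at 9.91 to 31.3 CPM, than in any NAM, at 4.94 to 9.58 CPM (log2 FC 1.03, SE 0.18, adjusted p = 9.34e-05 by the QL test). KITLG, FLT3, PDGFRL, NRP1 and LRP1 had log2 FCs from -0.65 to 0.08 and did not pass. LRP1, at -0.65 (adjusted p = 0.0557), passed by DESeq2 (adjusted p = 0.0419) and by the Mann-Whitney U-test (adjusted p = 0.00795). The adjusted p of LRP1 was 0.0298 without NAM replicate 3, 0.044 without group 1 replicate 1 and 0.00052 without group 2 replicate 11. Of the 9 genes, 0 were called between the tumor groups by the QL test, with 0 at an unadjusted p below 0.05 and 0 called by DESeq2 or the Mann-Whitney U-test. The QL test called 6.92% of all genes tested there.

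Of 8 proteases and binding proteins of PDGFs found, 7 were tested, and 1 was higher and 1 lower in PPGLs, beside 37.5% of all genes called. PLAU, the urokinase that can activate PDGFD, had a median of 6.01 CPM in NAMs and 12.9 CPM in PPGLs and reached 216 CPM in group 2 replicate 11 (log2 FC 2.09, SE 0.51, adjusted p = 0.00189 by the QL test). FURIN, a proprotein convertase, had a log2 FC of -0.77 (adjusted p = 0.00837). With the cortical score in the fit the adjusted p was 0.108 for PLAU and 0.377 for FURIN. PCSK5 had a log2 FC of -0.96 (adjusted p = 0.0748) and passed by DESeq2 (-1.54, adjusted p = 7.47e-07), by the Mann-Whitney U-test (adjusted p = 0.000907), with the cortical score in the fit (-2.27, adjusted p = 0.00548) and without group 1 replicate 7 (-1.56, adjusted p = 8.29e-05). In group 1 against group 2 PCSK5 passed without group 1 replicate 1 (log2 FC 1.65, adjusted p = 0.0642) or 6 (1.62, adjusted p = 0.0909), and PCSK6 without group 2 replicate 12 (1.98, adjusted p = 0.0919). PCSK6, ST14 and SPARC did not pass against NAMs, and PLG was at or under 3 counts in every sample.

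Below the receptors, 6 of 39 adaptors and enzymes tested were higher and 6 lower in PPGLs, with a median log2 FC of -0.01. This stood beside 37.5% of all genes called, so the count does not set these genes apart. STAT5A (log2 FC -1.04, adjusted p = 1.445e-06 by the QL test), PIK3CA (-1.44, adjusted p = 3.27e-05) and the ubiquitin ligase CBLB (-1.10, adjusted p = 0.000152) were lower. With the cortical score in the fit the adjusted p of PIK3CA was 0.0529. The adaptor GRB2 was higher (log2 FC 0.45, adjusted p = 0.00151). Between the tumor groups, the adaptor SHC3 (log2 FC 3.42, adjusted p = 0.0405) and STAT5A (0.49, adjusted p = 0.0809) were higher and SHC1 (-0.73, adjusted p = 0.094) was lower in group 1, and PLCG1 (0.74, adjusted p = 0.123) did not pass except with NAMs added to the fit (adjusted p = 0.0318) and without group 1 replicate 5 (adjusted p = 0.09996). Of the 39 tested, the QL test thus called 2 higher and 1 lower, beside 6.92% of all genes called. The Mann-Whitney U-test gave an adjusted p of 0.428 for SHC3 and 0.213 for SHC1. Without a filter the adjusted p was 0.13 for STAT5A and 0.101 for SHC1. The call of STAT5A was lost without group 1 replicates 2, 3 or 4 (adjusted p = 0.105, 0.106 and 0.176). It was also lost without group 2 replicates 3, 4, 8, 9, 10, 11 or 12 (adjusted p = 0.107, 0.118, 0.112, 0.102, 0.101, 0.1002 and 0.107). That of SHC1 was lost without group 1 replicates 3, 4, 6 or 7 (adjusted p = 0.16, 0.134, 0.119 and 0.195). The same held without group 2 replicates 1, 3, 4, 5, 6 or 7 (0.13, 0.11, 0.139, 0.105, 0.116 and 0.13) and 10, 11 or 12 (0.101, 0.128 and 0.128).

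In the RAS-MAPK and AKT chain, ARAF was lower in PPGLs (log2 FC -1.23, adjusted p = 5e-06 by the QL test). In group 1 against group 2, 0 of 17 genes of the chain were called by the QL test, DESeq2 or the Mann-Whitney U-test, and 3 had an unadjusted p below 0.05 by the QL test. Of all genes tested there, the QL test called 6.92%. The log2 FCs were 0.33 for AKT2, 0.67 for HRAS and 0.66 for NRAS. HRAS passed without group 1 replicate 1 (adjusted p = 0.0781) and with NAMs added to the fit (adjusted p = 0.0653), and NRAS was at -0.02 without group 1 replicate 7.

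Of 4 other receptor kinases that share inhibitors with PDGF receptors and KIT, RET rose from a median of 8.96 CPM in NAMs to 136 CPM in PPGLs (log2 FC 3.93, SE 0.67, adjusted p = 5.67e-05 by the QL test). It was at 1.43 CPM, below every NAM, in group 1 replicate 5. The vascular endothelial growth factor receptors KDR (log2 FC -1.09, adjusted p = 0.00579) and FLT4 (-0.95, adjusted p = 0.0058) were lower, and FLT1 (-0.60, adjusted p = 0.115) did not pass. With the cortical score in the fit the adjusted p of FLT4 was 0.29, and FLT1 passed without group 1 replicate 5 (adjusted p = 0.0251) and without group 2 replicate 9 (adjusted p = 0.0363). Group 1 against group 2 gave 0 of 4 called by the QL test, DESeq2 or the Mann-Whitney U-test, and 0 at an unadjusted p below 0.05.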

How the data were processed

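RNA from 29 dog samples was sequenced, and the authors deposited raw counts per Ensembl gene for CanFam3.1. The submitters' processing notes name FastQC, STAR, Picard and HTSeq, while the layout of the count table is that of featureCounts, so the counting tool is uncertain. The strand setting and the treatment of reads that match several genes are not given in the sources used here. Columns were matched to samples by their labels, and no 2 libraries of the same group agreed within sampling noise.

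Genes were filtered by filterByExpr, normalized by TMM and tested by edgeR's quasi-likelihood F test with Benjamini-Hochberg adjustment over all genes tested, at an adjusted p below 0.05 against NAMs and below 0.1 between tumor groups. Each tumor group was set against NAMs in 1 fit of 3 group means. SEs are the log2 FC divided by the square root of F. Scores are means of log2 CPM over the markers tested for PPGLs against NAMs. Correlations used log2 CPM (prior count 2) and two-sided permutation tests with 100000 resamples, exact for 7 samples.

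Named genes were the 7 members, all related and PDGF-processing genes found, the other receptor kinases, the 4 lowest adjusted p of the remaining pathway lists in each main comparison, the most abundant marker of each list, defining markers at or under 3 counts, and the 3 genes most alike to each member. Some genes that these rules pick are not shown. ANO1 and ETV1 form their whole list. The members and lists were chosen with earlier results of these data known. Alternatives included other scalings, filters and prior counts, DESeq2's Wald test, the Mann-Whitney U-test, a cortical covariate, a replicate block, other samples in the fit and leaving out each sample. The default fits by edgeR, DESeq2 and the Mann-Whitney U-test and the permutation correlations were tested on simulated data, and the other steps were not. Tools were R 4.3.3, edgeR 4.0.16, DESeq2 1.42.0, limma 3.58.1, Python 3.11.15, scipy 1.17.1 and matplotlib 3.10.9.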

Additional observations from a re-analysis of the deposited data

Results flagged for a closer look

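KIT in group 1 replicate 1, at 278 CPM, lay far from the other tumors of its group, the next of which was at 52.1 CPM. The gap was 0.822 of the range of the 7 tumors, above Dixon's 95% critical value of 0.568. It was taken on CPM, not log2 CPM, and that critical value assumes normally distributed values, which was not examined. The flag may thus depend on the scale. Of 18 groups of values examined, 1 passed that value, and for normal values chance gives about 1 in 20. Group 2, with 12 tumors, was not examined in this way.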

How the results depend on the processing

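When the cortical score was a covariate, the members called were 1 for PPGLs against NAMs, 0 for group 1 against NAMs and 0 for group 2 against NAMs by edgeR, with 1, 3 and 2 at an unadjusted p below 0.05, and the genes called of all tested were 2142, 11 and 1035. Between the tumor groups 0 of all genes were called, with 1511 at an unadjusted p below 0.05. Without the covariate DESeq2 called 1793 and the Mann-Whitney U-test 386. It reversed the log2 FC of PPGLs against NAMs for PDGFB (-0.054), PDGFC (0.57), PDGFRA (0.23), PDGFRB (-0.037), FLT3 (-0.28) and ST14 (-1.10), that between the tumor groups for KIT (-0.50) and NRAS (-0.26), that of group 1 against NAMs for KIT (-0.94), and that of group 2 against NAMs for PDGFB (-0.0020), PDGFC (-0.31), PDGFRB (-0.97) and KIT (-0.10). The cause was not tested.

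The sample numbers count different animals. Deviations of samples with the same number correlated between -0.232 and 0.251, and 2 of 24 correlated best with their own number, so the numbers do not pair samples. With the number as a replicate block, 47 of all genes were called between the tumor groups. For group 2 against NAMs 2 members were called, beside 4180 of all 15201 genes tested, and PDGFRA was added (-1.83, adjusted p = 0.0127). For PPGLs against NAMs the block fit called PDGFRA (-2.13, adjusted p = 0.00166) and not PDGFA (-0.78, adjusted p = 0.127). For group 1 against NAMs it called PDGFC (-1.34, adjusted p = 0.0455) and not PDGFA (-1.30, adjusted p = 0.0515). PDGFRB reversed to -0.38 for PPGLs against NAMs, 0.17 between the tumor groups and -0.46 for group 2 against NAMs, as did ST14 (-0.22) and SPARC (-0.35).

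Library size scaling gave PDGFC 0.047 against NAMs, 8 correlations with an adjusted p below 0.05 in place of 5, and r = 0.11 for KITLG with KIT in NAMs. Without a filter PDGFRB was at -0.0068, and DESeq2's Wald test put ST14 at -0.079 and called 1 member between the tumor groups. The Mann-Whitney U-test called 2 members for group 2 against NAMs, beside 5721 of all 15201 genes tested. With all 3 groups in the fit, 2 members and 2567 genes were called between the tumor groups. Without the 2 samples farthest from the median, r was -0.14 for PDGFA with the chromaffin score in PPGLs, and in NAMs -0.41 for PDGFD with PDGFRB, 0.74 for PDGFA with PDGFRA and 0.27 for PDGFC with the fibroblast score.

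With 1 sample left out in turn, the members called ranged from 1 to 3 for PPGLs against NAMs, 0 to 1 between the tumor groups, 2 to 4 for group 1 against NAMs and 1 to 2 for group 2 against NAMs, and the genes called between the tumor groups from 525 to 1218. The log2 FC ranged from -0.19 to 0.080 for PDGFC and -0.37 to 0.11 for PDGFRB in PPGLs against NAMs, from -0.32 to 1.18 for KIT between the tumor groups, and from -1.38 to 0.025 for PDGFRA and -0.34 to 0.32 for PDGFRB in group 2 against NAMs. For PPGLs against NAMs, PDGFD kept its direction and its call in all 29 such fits, from -2.45 to -2.14. At the depth of these samples, a gene at or under 3 counts cannot be told from an absent one.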
